A study of Mus musculus with 15 samples.

Results

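The Snord116del mouse lacks a snoRNA host transcript, 116HG, and the RNAs described here are of the same kind: 6 long noncoding genes that carry small nucleolar RNAs (snoRNAs) in their introns, Snhg1, Snhg3, Snhg8, Snhg11, Snhg12 and Gas5, and 3 long noncoding RNAs that stay in the nucleus, Malat1, Neat1 and Miat. The 9 genes were chosen by name, and the deposited RNA-seq table, with 23235 genes, holds all 9. Its unit is FPKM, the number of sequenced fragments scaled by transcript length and by the size of the library. All 9 were also among the 10297 genes whose mean over the groups reached 1 FPKM, which are called all genes or genes tested from here on. RNA was measured in the cortex of adult mice, either wild-type C57BL/6J (WT) or carrying the Snord116 deletion on the same background, which the study took from the father and which leaves the maternal copy in place. Cortex was taken at Zeitgeber time (Zt) +6, in the light hours, and at Zt +16, in the dark hours, from 3 WT and 2 Snord116del mice at Zt +6 and from 2 mice of each genotype at Zt +16. Chromatin isolation by RNA purification (ChIRP), which pulls an RNA out of cross-linked chromatin with biotinylated oligos and sequences the DNA that comes with it, was done on adult whole brain. There are 2 WT libraries with 116HG oligos and 1 library each of WT with non-specific control (NSC) oligos, Snord116del with 116HG oligos and Snord116del with NSC oligos.

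In a snoRNA host gene the exons are spliced together, while the introns release snoRNAs that guide the chemical modification of ribosomal RNA. Box C/D snoRNAs guide methylation of the ribose and box H/ACA snoRNAs guide the conversion of uridine to pseudouridine. Many host genes start at a run of pyrimidines, as the genes of ribosomal proteins do, and their spliced RNA is often removed by nonsense-mediated decay when ribosomes read it. Malat1 lies in nuclear speckles with splicing factors of the SR family, Neat1 is the scaffold of paraspeckles, and Miat (also called Gomafu) forms a separate nuclear domain in neurons and binds splicing regulators.

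The RNA-seq table holds 1 value per group and gene and none per mouse, so the spread between mice and the depth of each library are not in it, and no difference between groups could be tested. A gene was counted as higher or lower where a ratio of 1.5 or more separated FPKM + 1 of both groups, given 1 FPKM or more in the group with the larger value. The deletion showed in the labelled direction in Ipw, an RNA of the Snord116 region, with 21.6 FPKM in WT against 3.40 in Snord116del at Zt +6, and 3.17 against 1.82 at Zt +16, while Snord116 itself was listed at 0 in all 4 groups. Neuron markers were at 1 FPKM or more in every group for 7 of 7 genes, markers of cortical excitatory neurons for 4 of 5 and endothelial markers for 0 of 4. The labels give an older RNA-seq file for 1 of the 3 WT mice and both Snord116del mice at Zt +6, and for no mouse at Zt +16, so the Snord116del cortex at Zt +6 is the only group wholly in the older file, and whatever differed between these submissions cannot be told apart from the time of day or, at Zt +6, from the genotype.

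The starts of the genes are shown first, so that the length of the pyrimidine run can be read beside the levels that follow. The RefSeq promoter table holds 8 of the 9 members, all but Neat1, with 9 starts, and each whole promoter was found once, letter for letter, on NCBIM37, the assembly of mm9. Each line is the stretch of 60 bases around a start on that assembly, for 7 members, read in the direction of transcription, with the longest run of C and T that touches the window from 5 bases before to 10 bases after the start in capitals.
Snhg1, chr19:8797947-8798006, plus strand: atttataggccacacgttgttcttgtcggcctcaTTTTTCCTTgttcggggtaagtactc
Snhg12, chr4:131864563-131864622, plus strand: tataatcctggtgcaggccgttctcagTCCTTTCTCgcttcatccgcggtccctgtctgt
Snhg8, chr3:123211225-123211284, minus strand: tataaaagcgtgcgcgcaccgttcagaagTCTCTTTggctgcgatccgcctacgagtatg
Gas5, chr1:162965267-162965326, plus strand: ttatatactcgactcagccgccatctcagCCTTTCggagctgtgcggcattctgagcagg
Miat, chr5:112657939-112657998, minus strand: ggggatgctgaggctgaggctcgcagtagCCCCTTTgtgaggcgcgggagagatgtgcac
Snhg3, chr4:131909572-131909631, minus strand: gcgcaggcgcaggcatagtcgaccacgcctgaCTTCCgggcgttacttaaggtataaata
Malat1, chr19:5802643-5802702, minus strand: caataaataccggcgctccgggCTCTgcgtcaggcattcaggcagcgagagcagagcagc

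The run was 9 bases long at Snhg1 and Snhg12, 7 at Snhg8 and Miat, 6 at the Gas5 start printed above, 5 at Snhg3, 4 at Malat1 and 3 at Snhg11 and at the other RefSeq start of Gas5. Of 32851 RefSeq promoters, 25.3% have a run of 6 or more bases there, 16.9% one of 7 or more and 8.09% one of 9 or more, with a median of 4 bases. The length of the run did not order the genes by their differences at Zt +6: Snhg1 and Snhg12 share a run of 9 bases, and Snhg1 was past the 1.5-fold rule while Snhg12 was not, and Snhg11, with a run of 3 bases, had the highest fold of the 9.

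Malat1, Snhg11, Miat, Neat1 and Gas5 had their highest level in the Snord116del cortex at Zt +6. At Zt +6, Malat1 had 102 FPKM in WT against 433 in Snord116del, and at Zt +16 it had 10.6 against 21.2. By level it was gene number 21 of the table in the Snord116del cortex at Zt +6 and number 2166 in the WT cortex at Zt +16. Snhg11, a neuronal host gene that the annotation lists as protein coding, had 25.8 FPKM in WT against 139 in Snord116del at Zt +6, and 2.01 against 2.87 at Zt +16. The highest of its 4 values was 69.0 times the lowest, against 40.8 times for Malat1 and 9.53 times for Miat. Miat had 3.71 FPKM in WT against 14.4 in Snord116del at Zt +6, and 1.51 against 2.10 at Zt +16. In Malat1, Snhg11 and Miat both values at Zt +6 were above both values at Zt +16.

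In Neat1 and Gas5 the value in WT at Zt +6 did not exceed both values at Zt +16. Neat1 had 4.13 FPKM in WT against 13.2 in Snord116del at Zt +6, and 3.45 against 6.46 at Zt +16. Gas5, a growth-arrest transcript known to bind the glucocorticoid receptor, had 5.47 FPKM in WT against 13.9 in Snord116del at Zt +6, and 5.78 against 6.95 at Zt +16.

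Snhg3 and Snhg1 had the reverse order, with the lowest level in the Snord116del cortex at Zt +6 and the highest in the Snord116del cortex at Zt +16. Snhg3, the host of the snoRNAs Snora73a and Snora73b, had 42.5 FPKM in WT against 23.1 in Snord116del at Zt +6, and 60.2 against 93.6 at Zt +16. Snhg1 had 9.01 and 5.48 FPKM at Zt +6 and 11.9 and 16.4 at Zt +16. Snhg8 and Snhg12 varied least. Snhg8 had 4.00 and 4.58 FPKM at Zt +6 and 3.78 and 5.70 at Zt +16, and Snhg12 had 16.3 and 17.6 at Zt +6 and 11.6 and 23.6 at Zt +16.

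**Figure D1:**
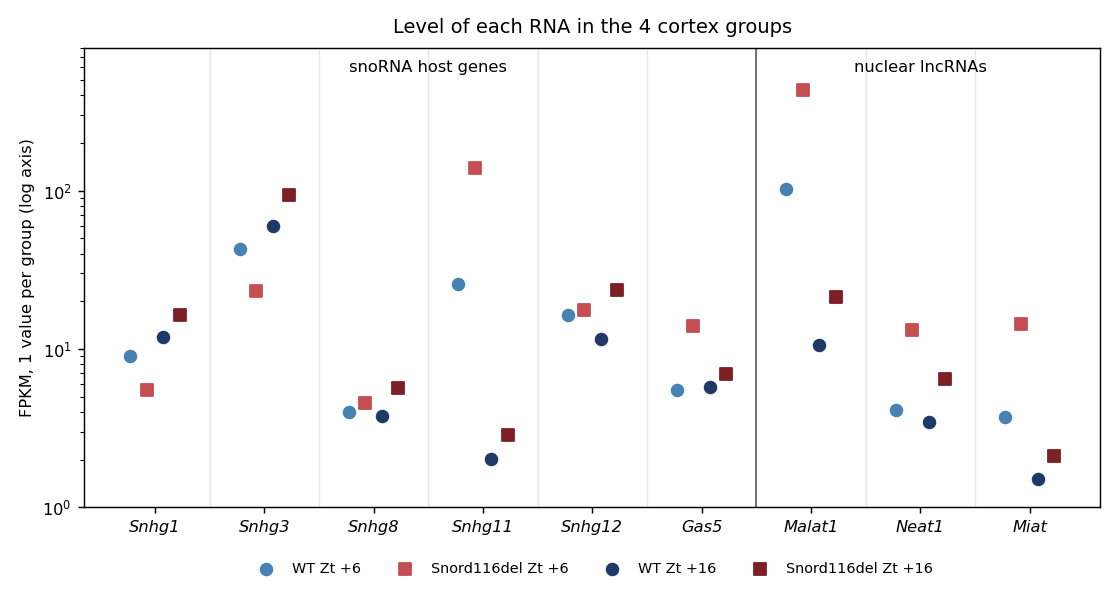
FPKM of the 9 RNAs on a log axis, with 1 point for each of the 4 cortex groups (circles WT, squares Snord116del; light colours Zt +6, dark colours Zt +16) and no error bar, since the table holds 1 value per group. Malat1, Snhg11 and Miat are lower at Zt +16 than at Zt +6 in both genotypes, and Snhg1 and Snhg3 have their lowest point in Snord116del at Zt +6.

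Against WT, 5 of the 9 RNAs were higher in the Snord116del cortex at Zt +6 and 2 were lower by the 1.5-fold rule. Of all genes tested, 49.3% were higher and 7.62% lower in this comparison, and the median log2 fold change of FPKM + 1 was 1.21 over the 9 RNAs and 0.57 over all genes. Snhg11 had a log2 fold change of 2.38 (an FPKM ratio of 5.36) and was above 99.9% of all genes tested. Malat1 had 2.07 (a ratio of 4.24) and was above 99.7% of genes. Miat had 1.71, Neat1 1.47 and Gas5 1.21, which were above 97.5%, 92.8% and 83.6% of genes. Snhg3 had −0.85 and Snhg1 −0.63, so that 95.8% and 92.9% of genes had a higher value. Snhg12 and Snhg8 had 0.10 and 0.16, below the median of all genes.

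The median of all genes was itself above 0, so the values were also read after the groups had been brought to a common scale. Scaling the 4 groups to the same median moved the median of all genes at Zt +6 to −0.06, and quantile normalization moved it to 0.03. Snhg11, Malat1, Miat and Neat1 stayed higher and Snhg1 and Snhg3 stayed lower under the same-median scaling, the same-total scaling and quantile normalization, while Gas5 was inside the rule with the same median, at 0.46. Snhg8 and Snhg12 were slightly higher on the deposited scale and lower with the same median, at −0.51 and −0.68, and with quantile normalization, at −0.57 and −0.33.

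The difference at Zt +6 followed transcript length over all genes. The median log2 fold change was −0.47 over the 622 genes whose longest transcript has 501 to 1000 bases, 0.52 over the 4076 genes of 2001 to 4000 bases and 1.34 over the 489 genes longer than 8000 bases. Snhg3, at 581 bases, and Snhg12, at 933 bases, are short, whereas Snhg11, Malat1, Miat and Neat1 have 5864, 6982, 8760 and 20771 bases. After the trend on length was subtracted, Snhg11 was at 1.35, Malat1 at 0.94 and Gas5 at 0.76, all still past the rule, and Snhg1, at 2719 bases, was at −1.11. Miat was then at 0.46 and Snhg3 at −0.22, inside the rule, and Neat1 changed direction to −0.20. The Neat1 value rests on which transcript is meant: at the 3170 bases of the short Neat1 transcript it was 0.88. Length moved with the result, and its part in the result was not tested.

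**Figure D2:**
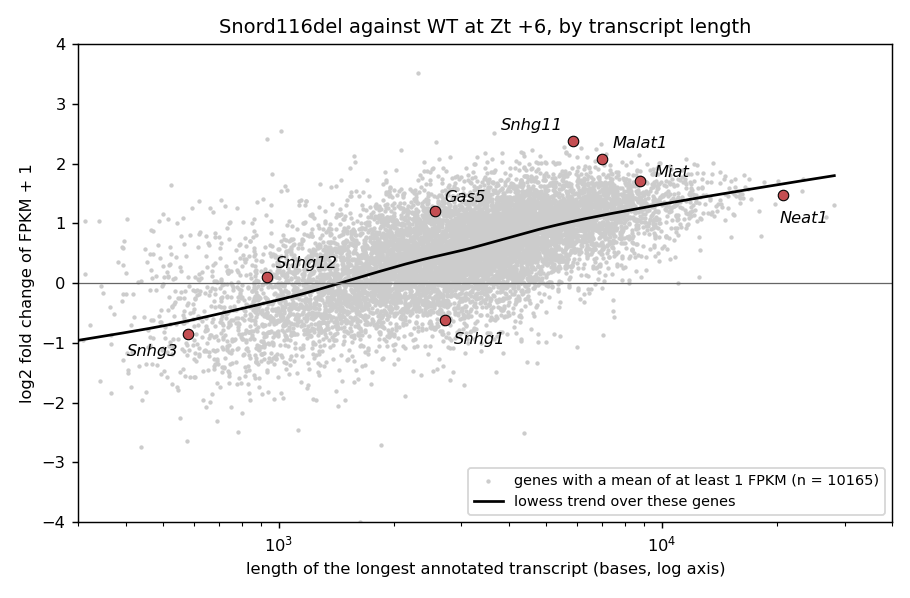
Log2 fold change of FPKM + 1 of Snord116del against WT at Zt +6 against the length of the longest annotated transcript on a log axis, for 10165 genes in grey (35 lie outside the axes), with the lowess trend as a black line and 8 of the 9 RNAs as red points. Snhg11, Malat1 and Gas5 lie above the trend and Snhg1 below it, while Neat1, at 20771 bases, and Snhg3, at 581 bases, lie near it.

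At Zt +16, 4 of the 9 RNAs were higher in Snord116del and 0 were lower, against 19% higher and 0.204% lower of all genes. Snhg12 had a log2 fold change of 0.97 and Malat1 of 0.93, above 98.4% and 97.9% of genes. Neat1 had 0.75 and Snhg3 0.63, while Snhg8, at 0.49, Snhg1, at 0.43, Snhg11, at 0.36, Miat, at 0.30, and Gas5, at 0.23, were within 1.5-fold, and all 5 of these were below 0 with the same total. The median of all genes was 0.35, and the summed FPKM of all genes was 216422 in WT and 342188 in Snord116del at this time, against 159300 and 160199 at Zt +6. With the same median, the same total or quantile normalization, 0 of the 9 RNAs were past the rule at Zt +16. Few genes of any kind were: 1.22%, 0.311% and 0.388% of all genes were higher in that order, and 0.515%, 0.991% and 0.505% lower. Snhg3 changed direction to −0.02 with the same total. Calls at Zt +16, on these RNAs as on all genes, thus depend on the scale of the groups.

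Between times, 3 of the 9 RNAs were lower at Zt +16 than at Zt +6 in WT and 0 were higher, against 10.3% lower and 5.71% higher of all genes. The log2 fold change of Snhg11 was −3.16 and that of Malat1 −3.15, with WT FPKM 12.9 and 9.62 times as high at Zt +6, and only 0.0874% and 0.0971% of all genes had a lower value. Miat had −0.91, and 3.18% of genes had a lower value. Both Snhg11 and Malat1 stayed lower at Zt +16 in WT under every scaling and after subtraction of the length trend, at −2.88 and −2.80 in the latter, whereas Miat was then at −0.46, inside the rule. The choroid plexus marker Ttr, the only one of 4 such markers above 1 FPKM, moved with time as well, at 200 and 182 FPKM in WT and Snord116del at Zt +6 and 24.9 and 29.6 at Zt +16. The summed FPKM of 5 oligodendrocyte markers was 393 and 625 at Zt +6 and 661 and 943 at Zt +16, and that of 5 astrocyte markers was 33.3, 98.5, 14.8 and 19.1 in the order WT and Snord116del at Zt +6, WT and Snord116del at Zt +16. All 5 astrocyte markers were higher in Snord116del at Zt +6 (49.3% of all genes) and 4 of 5 were lower at Zt +16 in WT (10.3%). At Zt +6, 4 of 7 neuron, 4 of 5 cortical excitatory, 3 of 4 microglia, 3 of 3 endothelial, 3 of 3 striatum and 2 of 5 oligodendrocyte markers were also higher, and 0 lower. Between times in WT, 3 of 7 neuron, 2 of 5 excitatory and 1 of 3 endothelial markers were lower, and 0 of 4 microglia and 0 of 3 striatum markers. Of these astrocyte markers 4 of 5 were at 1 FPKM or more in every group, and their part in the differences of Malat1 and Snhg11 was not tested. In bulk tissue, fewer cells of a type and less RNA per cell cannot be told apart.

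In Snord116del, 5 RNAs were lower at Zt +16 and 2 were higher, where 39.1% of all genes were lower and 25% higher. Snhg11 had −5.17, Malat1 −4.29, Miat −2.31, Neat1 −0.93 and Gas5 −0.91. Snhg3 had 1.97 and Snhg1 1.42, above 95.6% and 89.9% of genes. Snhg11, Malat1 and Miat stayed past the rule under the 3 scalings and with the length trend. Gas5 and Neat1 were inside it with the same median, at −0.45 and −0.47, Snhg1 with the same total, at 0.44, and Snhg3 with the length trend, at 0.30, where Neat1 turned to 1.46 at the length of its longest transcript. These comparisons share the Snord116del values at Zt +6 with the genotype comparison above, so the same RNAs at their extreme in that group enter both. The genotype difference at Zt +16 minus that at Zt +6 was −2.01 for Snhg11, −1.41 for Miat, −1.14 for Malat1, 1.06 for Snhg1 and 1.48 for Snhg3, with a median of −0.72 over the 9 RNAs and −0.22 over all genes.

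**Figure D3:**
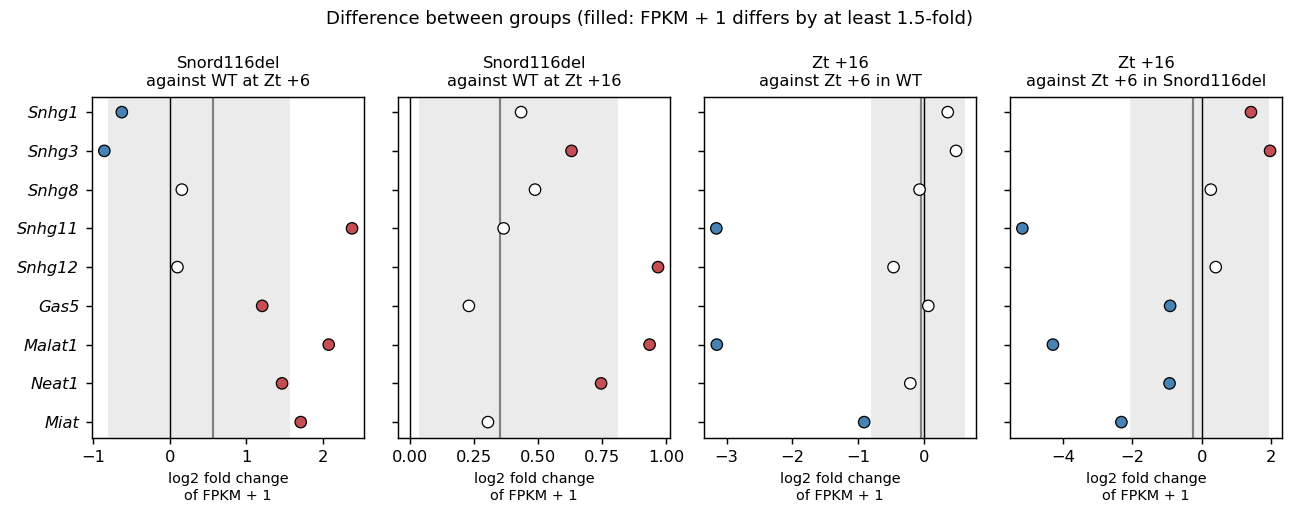
Log2 fold change of FPKM + 1 of the 9 RNAs in the 4 comparisons, each panel with its own axis (red higher and blue lower by the 1.5-fold rule, open circles within it). The grey line is the median of 10297 genes and the grey band runs from their 5th to their 95th percentile. Malat1 lies outside the band in all 4 panels, and Snhg11 and Miat in 3. Snhg3 lies outside it against WT at Zt +6 and between times in Snord116del, and Snhg12 against WT at Zt +16. The filled points at Zt +16 against WT are lost when the groups are brought to the same median.

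By the distance between patterns over the 4 groups (Euclidean, on centred log2 of FPKM + 1), Malat1 and Snhg11 were each other's nearest gene of 10296, at 0.637. The next were Nckap1 for Malat1, at 0.695, and Sv2a for Snhg11, at 0.992. The other members had closer neighbours: Snhg3 had Wdr53 at 0.0119 and Mad2l1bp at 0.0128, Miat had Akap6 at 0.0211 and Zfp106 at 0.0223, and Gas5 had Fn1 at 0.0245 and Cmc1 at 0.0384. The nearest were Lyar and Rexo2 for Snhg1, Slc29a2 and Wrap53 for Snhg8, Fam134a and Adap1 for Snhg12, and Adcy5 and Ahcyl1 for Neat1. With 4 points and 1 value per point, such likeness describes these groups only.

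Other long noncoding RNAs were measured beside the 9. Of 26 further nuclear long noncoding RNAs listed, 22 were in the table and 13 had a mean of at least 1 FPKM. At Zt +6, 11 of the 13 were higher in Snord116del and 1, Ipw, was lower, with a median of 1.05. Of all genes, 49.3% were higher and 7.62% lower. With the same median for all groups, 6 of 13 were higher, against 15.0% of all genes, with a median of 0.27. At Zt +16 in WT, 8 of 13 were lower than at Zt +6 and 0 were higher, against 10.3% and 5.71% of all genes. With the same median 7 of 13 were lower, against 9.48% of all genes, and with quantile normalization 7, against 7.89%. With the same total 10 of 13 were lower, against 28.98% of all genes. With the length trend 4 of the 9 that have a length were lower, against 6.63% of all genes. Meg3, Rian and Mirg, maternally expressed RNAs of the Dlk1-Dio3 imprinted region, had 67.4, 4.35 and 2.24 FPKM in WT against 228, 20.2 and 9.67 in Snord116del at Zt +6. In the WT cortex at Zt +16 these 3 had 32.0, 0.869 and 1.03 FPKM. Tug1 had 3.65 and 17.7 FPKM at Zt +6 and 0.841 and 1.03 at Zt +16, and 1700020I14Rik (Cyrano), a conserved long noncoding RNA, had 11.6 and 50.5 at Zt +6 and 2.47 and 3.63 at Zt +16. Rmrp and Rpph1, the RNA components of RNase MRP and RNase P, had 77.5 and 63.1 FPKM in WT against 133 and 117 in Snord116del at Zt +6.

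Of 14 other long noncoding snoRNA hosts listed, 7 were measured. Snhg4 was higher in Snord116del at Zt +6, at 2.88 against 1.33 FPKM, and Snhg9 was lower, at 340 against 712 FPKM. Snhg9 had 1108 FPKM in WT against 2198 in Snord116del at Zt +16, the same order of groups as Snhg1 and Snhg3. Snhg5, Snhg6, Snhg7, Snhg10 and 1500012F01Rik were within 1.5-fold between genotypes at Zt +6, where 49.3% of all genes were higher and 7.62% lower. With the same median, 0 of the 7 were higher and 4 lower, against 15.0% and 24.4% of all genes. With quantile normalization 0 were higher and 3 lower, against 22.2% and 20.6%. With the length trend 2 of the 5 that have a length were higher and 0 lower, against 12.7% and 13.3%.

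All 36 protein-coding snoRNA hosts listed, mostly ribosomal proteins and translation factors, were measured. At Zt +6, 10 were higher and 5 lower in Snord116del, against 49.3% and 7.62% of all genes. With the same median, 1 was higher and 19 were lower, where 15.0% of all genes were higher and 24.4% lower. At Zt +16, 17 were higher and 0 lower, against 19% and 0.204% of all genes. At most 1 was higher under the 3 scalings, where at most 1.22% of all genes were. In Snord116del, 16 were higher at Zt +16 than at Zt +6 and 6 lower, against 25.0% and 39.1% of all genes. With the same total, 7 were higher and 18 lower, against 8.31% and 66.6% of all genes. With quantile normalization, 3 were higher and 11 lower, against 30.2% and 28.2% of all genes. The most abundant, Rps20 and Rpl37, had 578 and 470 FPKM in WT against 311 and 304 in Snord116del at Zt +6, and 928 and 724 against 1623 and 1493 at Zt +16. The median log2 fold changes of the hosts at Zt +6 were 0.07 over the 7 noncoding and 0.20 over the 36 protein-coding hosts, against 0.57 for all genes. This order turned with the length trend, with 0.28 over the 5 noncoding hosts that have a length and 0.0179 over the protein-coding hosts against 0.00858 for all genes, and for the protein-coding hosts also with quantile normalization, with 0.056 against 0.030.

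Proteins that work with these RNAs were read in the same way. Of the 11 paraspeckle proteins, 7 were higher in Snord116del at Zt +6 and 0 lower. This count, and those of the lists below at Zt +6, are to be read beside the 49.3% higher and 7.62% lower of all genes. Hnrnpk and Hnrnpm, the most abundant, had 18.5 and 17.8 FPKM in WT against 25.7 and 28.4 in Snord116del, and only Hnrnpm was past the rule. With the same median, 3 of the 11 were higher and 1 lower, where 15.0% of all genes were higher and 24.4% lower. Of 12 measured proteins of nuclear speckles and the SR family, 10 were higher and 0 lower, with a median of 1.28 (5 higher and 0 lower with the same median), and Srrm2, a large speckle protein, had 20.9 and 61.1 FPKM. Of the 4 splicing regulators that bind Miat, 3 were higher, among them Qk at 16.4 and 81.3 FPKM, while Celf3 had 24.6 and 25.3, and with the same median 1 was higher and 1 lower. Of 12 nonsense-mediated decay factors measured, 5 were higher and 1, Magoh, was lower, at 10.6 against 27.0 FPKM, while 2 were higher and 2 lower with the same median. The 8 measured proteins, of 11 listed, come from RNase P and the enzyme Elac2, which cut the tRNA-like ends of Malat1 and Neat1. As deposited, 1 was higher, 2 were lower and 5 were within the rule at Zt +6, with a median of −0.24. Pop7 had 16.9 FPKM in WT against 6.89 in Snord116del. With the same median, 0 of the 8 were higher and 6 lower, where 15.0% of all genes were higher and 24.4% lower. With quantile normalization 0 were higher and 6 lower, against 22.2% and 20.6% of all genes. With the same total 2 were higher and 3 lower, against 50.9% and 8.21%. With the length trend 0 were higher and 2 lower, against 12.7% and 13.3%. The median was below 0 under each scaling and with the length trend. At Zt +16, 5 of these 8 were higher in Snord116del, against 19% of all genes. Under each scaling 0 were higher, where at most 1.22% of all genes were.

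Neighbouring genes did not share a single pattern with the members. Malat1 and Neat1 lie 22036 bases apart on chromosome 19. Frmd8, the protein-coding gene beside Neat1, had 2.50 and 2.79 FPKM in WT and Snord116del at Zt +6 and 3.08 and 4.03 at Zt +16. Ralgapb, the gene after Snhg11, had 2.84 and 10.8 FPKM at Zt +6 and at most 1.78 at Zt +16, the same order of groups as Snhg11. Wdr74, after Snhg1, had 8.20 and 5.46 at Zt +6 and 13.7 and 18.8 at Zt +16, again the order of its neighbour, while Slc3a2, which starts 126 bases from Snhg1 on the other strand, had 27.4, 38.1, 33.4 and 42.1. Snhg3 overlaps Rcc1, whose values lay between 0.965 and 1.32 FPKM. Both lie on the same strand, so shared reads could be split between them. Whether the counting used strand is not given in the sources used here, so reads of Malat1 and its antisense gene, and of Gas5 and Zbtb37, which overlap at their starts on opposite strands, cannot be told apart.

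All 9 genes carried peaks of WT 116HG replicate 1 in the gene or within 2 kb, 47 peaks in all. Of the 21854 genes with a position, counted at any level of expression, 59.3% had one. Of genes at 3 to 10 FPKM in WT at Zt +6, 97.6% had one. Malat1 was covered almost whole. Its larger peak, chr19:5796048-5802707, was 6660 bases wide with a fold over input of 244, number 9 by width of the 78033 peaks of that list, and with a second peak of 276 bases it covered 98.8% of the exon bases. At Snhg11 a peak of 4957 bases, chr2:158206943-158211899, lay over the last exon with a fold of 276. At Miat the largest of 11 peaks, chr5:112642243-112644800, had 2558 bases and a fold of 308. Peaks covered 72.0% of the exon bases of Snhg11 and 63.3% of those of Miat, against 7.10% and 0% of their introns. At the host genes with smaller peaks, they covered 38.3% of the exon bases of Snhg3, 35.0% of Snhg12, 27.9% of Gas5 and 18.0% of Snhg1. The median over 10165 genes was 20.9%, and it rose with the level in WT at Zt +6. It was 29.5% at 3 to 10 FPKM, where Snhg1, Gas5 and Miat lie. At 10 to 30 FPKM, where Snhg11 and Snhg12 lie, it was 49.2%, and at 30 to 100 FPKM, where Snhg3 lies, 63.1%. Snhg3, Snhg12, Gas5 and Snhg1 were thus below the median of genes at their level, and Snhg11 and Miat above it.

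Neat1 had 5 peaks, and all 5 lay over its short transcript. They covered 36.8% of the 3170 bases of that transcript, chr19:5842307-5845476, and 0% of the 17599 bases that only the long transcript holds. Over the 8 annotated members, the middle base of 39 of 44 peaks lay in an exon, 1 in an intron and 4 beside the gene; the annotated transcripts of Snhg1 and Gas5 include ones that keep their introns, so that nearly the whole gene counts as exon there. Snhg8 is not annotated under this name in GENCODE vM1. Its start came from RefSeq and its extent, chr3:123210470-123211254 on the minus strand, from the RefSeq length of 785 bases, and 2 of its 3 peaks lay in it.

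**Figure D4:**
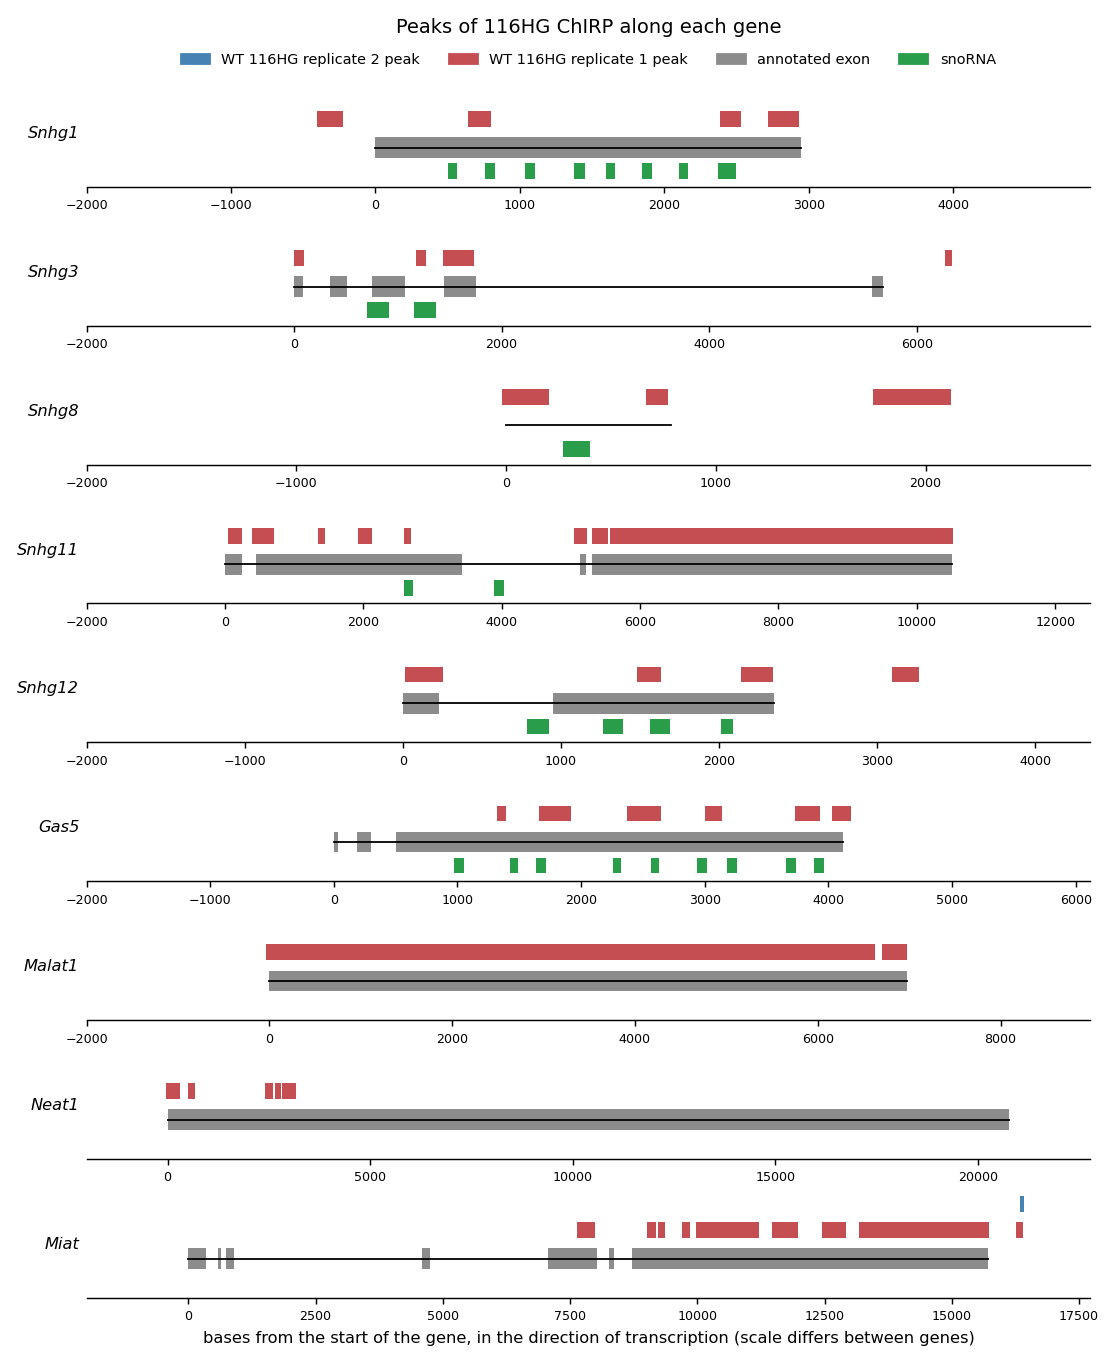
The 9 genes from the start of transcription (0) to the end, in bases, each on its own scale with 2 kb on either side: exons in grey, snoRNAs in green, WT 116HG replicate 1 peaks in red and replicate 2 peaks in blue. Red bars lie over the exons of Snhg11 and Miat, over nearly all of Malat1 and over the first bases of Neat1, and the single blue bar lies past the end of Miat.

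The peak with the highest fold at any of the 9 genes, 380, lay over the first exon of Snhg11 and was 208 bases wide. The peaks with the highest fold inside Snhg12, Snhg3 and Gas5 are printed to show how they sit on exon sequence, in the direction of transcription with annotated exon bases in capitals. Their folds were 88.1, 103 and 226. At Snhg12 and Snhg3 the peak ends inside the first intron, and at Gas5 it reaches into intron bases that some annotated transcripts keep.
Snhg12, chr4:131864607-131864844, plus strand: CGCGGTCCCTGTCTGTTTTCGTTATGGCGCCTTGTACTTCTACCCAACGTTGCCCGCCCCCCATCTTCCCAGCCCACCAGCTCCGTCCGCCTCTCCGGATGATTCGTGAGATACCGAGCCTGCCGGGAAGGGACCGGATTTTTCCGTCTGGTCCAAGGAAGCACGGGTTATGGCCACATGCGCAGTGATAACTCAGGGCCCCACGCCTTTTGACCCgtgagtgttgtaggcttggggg
Snhg3, chr4:131909506-131909603, minus strand: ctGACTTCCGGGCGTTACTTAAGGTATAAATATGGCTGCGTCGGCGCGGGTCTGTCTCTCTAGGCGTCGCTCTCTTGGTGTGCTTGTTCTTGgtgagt
Gas5, chr1:162965870-162965947, plus strand: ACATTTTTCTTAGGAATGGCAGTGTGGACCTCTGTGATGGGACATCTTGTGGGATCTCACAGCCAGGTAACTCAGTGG

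The snoRNAs themselves lie partly under these peaks. GENCODE vM1 places 26 snoRNAs inside the 6 host genes on their strand: 9 in Gas5, 8 in Snhg1, 4 in Snhg12, 2 each in Snhg3 and Snhg11 and 1 in Snhg8. By name 18 are box C/D and 7 box H/ACA, and 1 carries no class in its name. Replicate 1 peaks touched 10 of the 26 and covered 24.0% of their 2559 bases. SNORD78 of Gas5 lay wholly inside a peak, SNORD24 for 74.7% of its length, and SNORD44, which lies between them, not at all. These 3 are printed here to show what a peak over a snoRNA contains, with the letters of the C box (TGATGA) and the D box (CTGA) in capitals where a search of the first 20 and the last 15 bases of the printed strand found them.
SNORD24, chr1:162966188-162966270, plus strand: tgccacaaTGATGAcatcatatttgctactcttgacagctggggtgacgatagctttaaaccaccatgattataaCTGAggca
SNORD44, chr1:162966813-162966872, plus strand: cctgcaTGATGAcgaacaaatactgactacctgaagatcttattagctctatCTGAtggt
SNORD78, chr1:162967115-162967180, plus strand: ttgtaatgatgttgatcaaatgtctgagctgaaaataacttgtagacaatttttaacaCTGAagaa

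Of the 18 box C/D snoRNAs, all 18 hold the D box letters and 13 the C box letters. The RNA-seq table does not measure the snoRNAs: 6 of the 26 are rows of the table, and 4 of these 6 are listed at 0 in all 4 groups. Snord22 of Snhg1 had 13.5 and 21.2 FPKM at Zt +6 and 3.01 and 0 at Zt +16, with WT given before Snord116del, and Snora44 of Snhg12 had 38.1 in Snord116del at Zt +6 and was listed at 0 in the other 3 groups.

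Replicate 2 of the WT 116HG ChIRP gave a different picture. Its list of 11145 peaks had 1 peak within 2 kb of a member, beyond the end of Miat. Of the 21854 genes with a position, 13.9% had one. The study's rule counts a replicate 1 peak as replicated when it lies within 10 kb of a replicate 2 peak. By this rule, 20 of the 47 peaks at the members and 4 of the 9 genes were replicated: Miat, Malat1, Gas5 and Snhg12. Of all 78033 replicate 1 peaks, 10.4% were replicated. Peaks that lie close together can share 1 replicate 2 peak in this count, as all 11 at Miat do. Of the 21854 genes with a position, 10.9% had a replicated peak. At Malat1 the replicate 2 peak was chr19:5808356-5808584, 5685 bases upstream of the gene, at Gas5 it was 6150 bases upstream, and at Snhg12 it was chr4:131876193-131876338, 9254 bases beyond the end. With an actual overlap, or within 2 kb, only Miat remained.

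The overlapping pair at Miat is printed on the minus strand, the strand of the gene, as the replicate 1 peak with the part shared with the replicate 2 peak in capitals. It lies beyond the 3′ end of Miat.
Miat, chr5:112641562-112641705, minus strand: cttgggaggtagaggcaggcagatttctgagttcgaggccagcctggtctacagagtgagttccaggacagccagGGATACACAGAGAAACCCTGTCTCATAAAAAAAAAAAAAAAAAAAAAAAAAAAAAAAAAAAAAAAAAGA

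These letters are those of a B1 repeat, a short interspersed element that occurs very often in the mouse genome, followed by a run of A. The 15 letters GAGAAACCCTGTCTC from the shared part, searched on both strands, occur in 9.03% of replicate 2 peaks, in 1.25% of replicate 1 peaks and in 0.472% of tiles of chromosome 5, each taken as 144 bases. In the same windows of WT NSC they occur in 2.10%, of Snord116del NSC in 0.118% and of Snord116del 116HG in 0%.

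The control lists held no peak within 2 kb of any of the 9 genes. With 0 of 3648 WT NSC peaks, 0 of 1280 Snord116del 116HG peaks and 0 of 3418 Snord116del NSC peaks at the members, a share of up to 0.0822%, 0.234% and 0.0878% of these lists is allowed by counting error, against 0.0602% of the replicate 1 list. Among the 21854 genes with a position, 2.3% had a WT NSC peak, 2.26% a Snord116del 116HG peak and 7.87% a Snord116del NSC peak within 2 kb.

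The share of genes with a replicate 1 peak moved with the transcript level, and all 9 members lie at levels where nearly every gene has one. Of genes with 0.1 to 1 FPKM in WT at Zt +6, 38.2% had a replicate 1 peak, of those with 1 to 3 FPKM 89.6%, and of those with 3 to 10 FPKM, where Snhg1, Snhg8, Gas5, Neat1 and Miat lie, 97.6%. Of the 244 genes above 100 FPKM, such as Malat1, 99.2% had one. The median share of exon bases under replicate 1 peaks was 11.4% over genes of 1 to 3 FPKM and 71.5% over genes above 100 FPKM. Replicate 2 had peaks at 20.0% of genes of 1 to 3 FPKM and 7.79% of genes above 100 FPKM. The middle base of 72.0% of replicate 1 peaks lay in an exon of some gene, where the share was 2.37% in replicate 2 and 3.05% in the WT NSC list. In Snord116del it was 12.4% with 116HG oligos and 22.3% with NSC oligos. The part of transcript level in the replicate 1 peaks at the members was not tested. The peak lists do not show whether the fragments under these peaks came from DNA or from copies of RNA, and this bears on what each replicate 1 peak at these genes stands for.

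**Figure D5:**
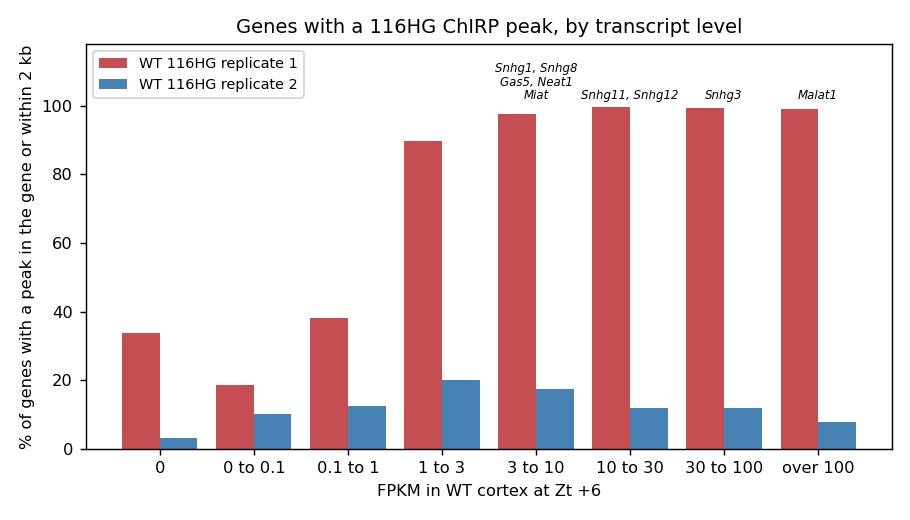
Percent of genes with a WT 116HG ChIRP peak in the gene or within 2 kb (bars from 0, red replicate 1, blue replicate 2), in bins of FPKM in the WT cortex at Zt +6, with the members named above their bin. Replicate 1 bars reach 97.6% or more in the bins that hold the 9 members, and replicate 2 bars stay at 20.0% or lower.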

How the data were processed

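The members, the further gene lists and the rules were chosen with earlier results of these data known. Per the submitters' processing notes, reads were handled with CASAVA 1.8.0, Bowtie2 2.0.0, MACS 1.4.2, TopHat2 2.0.5 and Cuffdiff 2.0.2 on mm9. The authors deposited 1 FPKM value per group and gene; values per mouse were not analysed here. The table's log2 fold changes and q-values are the authors' own comparison of genotypes and were not used. In 4 peak lists the deposited ratio of a peak is its enrichment over input as the authors computed it, and the lowest fold was 20.0. The list of WT 116HG replicate 2 gives positions only. Peak starts were written 1-based.

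Log2 fold changes used a pseudocount of 1 FPKM, over the genes whose mean reached 1 FPKM. FPKM divides by transcript length and by the library's total, so a shift in a few abundant or long RNAs moves all others, and fold changes of low genes are understated. No test was possible and n is the number of mice behind a value. Genes were matched by symbol to GENCODE vM1 on NCBIM37 (21853 of 23235). RefSeq promoters, of assembly GRCm38.p6, were used for their sequence only. Genes named are the members, up to 2 of the most abundant genes of each list, the measured noncoding RNAs, the 2 nearest patterns and the neighbours of each member. Steps were tested on simulated data. Python 3.11.15, pandas 2.3.3, pysam 0.24.0, statsmodels 0.14.6 (lowess, span 0.5) and matplotlib 3.10.9 were used. The scales of the further lists were examined after seeing the data. Alternatives covered the pseudocount, filters, scale, length, fold and peak distances.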

Additional observations from a re-analysis of the deposited data

Results flagged for a closer look

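Snhg3 was past the 1.5-fold rule in opposite directions at the 2 times, lower in Snord116del at Zt +6 and higher at Zt +16, and its genotype difference at Zt +16 minus that at Zt +6 was 1.48 on the log2 scale of FPKM + 1. The difference was not tested, since each group has 1 value. Of 785 genes lower at Zt +6, 469 (59.7%) were higher at Zt +16 by the same rule. Snhg3 was not past the rule at Zt +16 with the same median, the same total, quantile normalization or the length trend.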

How the results depend on the processing

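Under another pseudocount, the 3 scalings and the length trend, 180 member values were compared. They include those of Neat1 at its short transcript, of which 3 kept direction and side of the rule and 1 was no longer past it. Of the 180, 127 kept direction and side of the rule, 21 were no longer past it and 6 came to be past it in the same direction. A further 22 that were within it changed sign (5 of them ending past it) and 4 that were past it reversed. The reversed values are Neat1 with the length trend at its longest transcript, at −0.20 at Zt +6 and at 1.46 between times in Snord116del, and Snhg3 at Zt +16, at −0.022 with the same total and −0.0084 with the length trend. With Neat1 at its short transcript, a setting chosen after seeing the data, these 2 Neat1 values were 0.88 and −0.66. Counts of members moved as follows. With the length trend, 3 were higher and 1 lower at Zt +6, 2 higher at Zt +16 and 1 higher at Zt +16 in WT (8 members, without Snhg8). With a fold of 2, 0 were lower at Zt +6, 0 higher in the Zt +16 genotype comparison and 3 lower between times in Snord116del. With the same median, 0 were higher in Snord116del at Zt +16, 1 higher between times in WT, and 4 higher and 3 lower between times in Snord116del. With the same total, 0 were higher in Snord116del at Zt +16 and 1 higher between times in Snord116del, and with quantile normalization 0 were higher in Snord116del at Zt +16. The cause was not tested. Replicate 2 peaks reached 0 members within the gene and 4 within 10 kb. Members with a replicated peak numbered 1 with a direct overlap, 1 within 2 kb, 8 within 50 kb and 1 when taken from replicate 2, and with 1 WT 116HG library left out they ranged from 1 to 9. At Zt +6 the calls of all genes shifted with scale, with 86.6% of calls higher as deposited, 38.1% with the same median and 51.9% with quantile normalization. In the genotype comparison at Zt +16 these shares were 98.9%, 70.4% and 43.5%, and 23.9% with the same total. Between times they were 35.7% as deposited, 53.1% with the same median and 1.71% with the same total in WT, and 39.0%, 56.9% and 11.1% in Snord116del, where quantile normalization gave 51.7%. No paired analysis was possible because the table holds 1 value per group. Depth is not in the files, and with 1 value per group no error can be given.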
